A study of Mus musculus with 40 samples.

Results

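DNA replication and mitosis genes, which copy the DNA and divide the cell, were examined in mouse liver. The 47 genes were taken by name from the 21448 gene symbols of the probe counts, and all 47 were found there, with 100 probes between them. They comprise 2 genes of G1 entry (*Ccnd1* and *Cdk4*), 16 replication members (G1/S control, origin licensing, the replication fork and nucleotide supply) and 29 mitosis members. The mitosis members cover cyclins and kinases of G2 and mitosis, the kinetochore, the spindle and cell separation. *Ccna2*, a cyclin of S as well as G2 phase, *Top2a*, *Mki67* and *Foxm1* were also placed among them. The rule for members names genes and uses no count. Where a gene had more than 1 probe, as 38 of the 47 did, only its most counted probe enters the values.

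Male and female wild-type Crl:CD1(ICR) mice, an outbred stock, were given GenX (the ammonium salt of a short-chain perfluoroalkyl ether acid) in deionized water by oral gavage for 90 days at doses of 0.1, of 0.5 or of 5 mg/kg bw/d, and control mice received deionized water alone. Mice were housed individually, and from each of the 8 groups, which were larger in the study, the first 5 by animal number were sequenced. They are numbered from 01 to 05 (males) or from 51 to 55 (females) after a first digit for the dose. RNA was measured in scrapings of formalin-fixed, paraffin-embedded liver sections with TempO-Seq, which ligates a pair of short probes on each target RNA, amplifies the product and counts its reads. The library of mouse 355 (female, 0.5 mg/kg) was left out for its low depth, so that group has 4 mice and 39 libraries remain. In bulk liver, fewer cells of a type and less RNA per cell cannot be told apart.

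Cells that leave rest first raise D-type cyclins, then switch on E2F target genes for DNA synthesis, and later the genes of G2 and mitosis, which are held off in resting cells through a promoter element called the cell cycle genes homology region (CHR). Hepatocytes of the adult liver are mostly at rest and divide when the organ grows or is injured, so mitotic transcripts are scarce in healthy liver. A rodent hepatocyte can also copy its DNA without dividing and become polyploid.

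The letters of these promoters are shown first, as a description of the members. The shares use no count, but the windows printed after them were chosen once the counts had been seen. The RefSeq promoter table (GRCm38.p6, 250 bases before to 50 bases after the transcription start) held 39 of the 47 members. *Ccnd1*, *Ccne2*, *Mcm4*, *Foxm1*, *Ccna2*, *Aurkb*, *Kif20a* and *Tpx2* were not in it. The words below were searched on both strands: the CHR word TTTGAA, the CCAAT box CCAAT, and the E2F words TTTGGCGC, TTTCGCGC, TTTCCCGC and TTTGCCGC, which can overlap each other where 1 site reads as an E2F word on both strands. The CHR word was present in 18 of 24 mitosis promoters (75.0%) and in 1 of 14 replication promoters (7.14%), that of *Mcm2*. It was present in 18.1% of all 27025 mouse promoters of this length. An E2F word was present in 6 of 14 replication promoters (42.9%), those of *Mcm3*, *Mcm5*, *Mcm6*, *Mcm7*, *Cdt1* and *Cdc6*, in 1 of 24 mitosis promoters (4.17%), that of *Cdk1*, and in 2.32% of all promoters. The CCAAT box was present in 19 mitosis (79.2%) and 8 replication promoters (57.1%), compared with 37.9% of all. The promoter of *Cdk4* held none of the words. A match is a description of the letters, not of a bound site.

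Windows of 30 bases from 6 promoters, 5′ to 3′ on the strand of the gene, are printed below with the word in capitals. *Top2a*, *Plk1* and *Prc1* are shown because they were called higher in males at 5 mg/kg and hold the CHR word. *Cenpe*, also called higher, held a CCAAT box but no CHR word, and the promoter of *Kif20a*, called too, was not in the table. *Cdc20*, *Mcm6* and *Mcm5* are shown as examples of the words, *Mcm5* being too scarce to test.
Top2a (CHR, chr11:99024351-99024380, minus strand): ctattggtccatTTTGAAgattctcccgcc
Plk1 (CHR, chr7:122159453-122159482, plus strand): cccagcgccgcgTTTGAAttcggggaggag
Prc1 (CHR, chr7:80294434-80294463, plus strand): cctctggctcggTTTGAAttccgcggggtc
Cdc20 (CHR, chr4:118437344-118437373, minus strand): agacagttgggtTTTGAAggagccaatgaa
Mcm6 (E2F, chr1:128359734-128359763, minus strand): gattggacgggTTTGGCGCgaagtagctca
Mcm5 (E2F, chr8:75109345-75109374, plus strand): gcgccaagaacTTTCGCGCcaaaacgtcca
Counted from the transcription start, the printed CHR word begins at base -179 in *Top2a*, -18 in *Cdc20*, -5 in *Prc1* and 31 in *Plk1*, and *Top2a* holds another on the opposite strand at base -23. The printed E2F word begins at base -47 in *Mcm6* and -153 in *Mcm5*, with further matches at -110 and -106 in *Mcm6* and at -149 in *Mcm5*. The promoters of *Tk1*, *Tyms*, *E2f1* and *Ccne1* among replication members, and of *Nuf2*, *Nusap1* and *Birc5* among mitosis members, held no word of any kind.

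**Figure D1:**
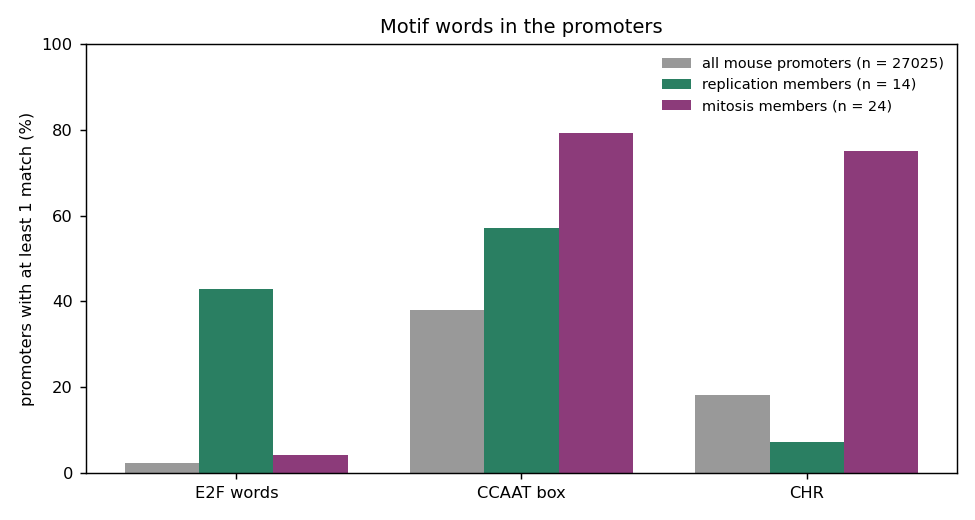
Bars give the share of promoters (%) with at least 1 match of an E2F word, the CCAAT box or the CHR word, on either strand, among all mouse promoters (grey, n = 27025), replication members (green, n = 14) and mitosis members (purple, n = 24). The CHR bar of mitosis members stands at 75.0% against 18.1% of all promoters, and the E2F bar of replication members at 42.9% against 2.32%.

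Library depth was 10341341 to 15562253 reads. Low read counts had a first peak, which lay at 20.8 to 49.8 reads depending on the library. Taking that peak as 1 captured molecule gives an estimate of 287244 to 656743 molecules per library, which limits precision for the scarce members. Whether higher counts fall at even steps was not tested. Depth moved with dose in males: the median was 329947 molecules in male controls against 591295 at 5 mg/kg, while female controls had 418492 and the high-dose females 320470. Detection is therefore also given as the number expected after thinning every library to 287183 molecules, called the common depth. Reads carry no molecular identifiers, and ratios pool the molecules of all mice in a group. Intervals therefore cover counting error only, and floors only that of the controls. Both leave out the spread between mice. The tissue label was borne out by hepatocyte markers, all 6 of which were read, with a summed normalized count of 29751.72 to 36583.58 CPM (normalized reads as a share of 1e6, after TMM scaling) in male controls.

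Mitosis members were nearly absent from control males and were read broadly in males at 5 mg/kg. Of the 29 mitosis members, 1 to 3 had at least 1 read in each control male (median 3), and 21 had no read in any of the 5. At 0.1 mg/kg the numbers per male ran from 2 to 10 (median 4), and at 0.5 mg/kg from 1 to 7 (median 5). At 5 mg/kg, 20 to 25 (median 22) were read, 16 were read in every male, and only *Spc25*, a kinetochore subunit, was read in none of them or of the 39 mice. At the common depth, 0.87 to 3.0 mitosis members were expected per control male and 15.27 to 22.06 per male at 5 mg/kg, so the groups stay apart at equal depth.

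Replication members were read more often in controls. Of these 16, 8 to 11 were read in each control male (median 11) and 11 to 15 in each male at 5 mg/kg (median 12). At the common depth the expected numbers were 7.3 to 11 and 9.13 to 11.86, which overlap. *Pcna*, *Rrm1* and *Tk1* were read in each of the 39 mice. The least often read were *Cdc6* (1 mouse), the loader of the replicative helicase, and its substrate subunits *Mcm5* (3 mice) and *Mcm4* (9 mice).

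In females, 3 to 15 mitosis members were read per control mouse (median 7), 5 to 8 at 0.1 mg/kg, 2 to 7 at 0.5 mg/kg and 2 to 19 at 5 mg/kg (median 7). The counts of control and treated females overlapped at each dose. The value of 19 belongs to mouse 452, and the control value of 15 to mouse 154. Replication members were read at 9 to 11 per female in controls and at 5 mg/kg alike.

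**Figure D2:**
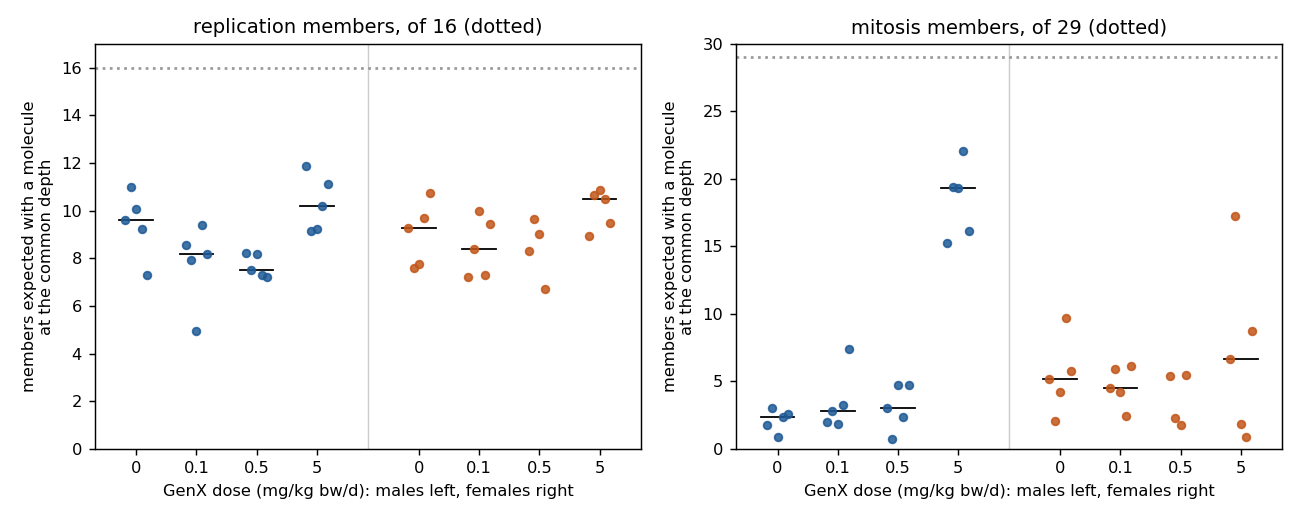
Each point is 1 mouse and each line a group median; the y axis is the number of replication (left, of 16) or mitosis (right, of 29) members expected with at least 1 molecule at the common depth, by sex and dose. Males at 5 mg/kg lie between 15.27 and 22.06 mitosis members, above the 0.87 to 3.0 of control males, and 1 female at 5 mg/kg reaches 17.25.

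The summed normalized count of the 29 mitosis members was 3.59, 5.34, 7.92, 9.76 and 10.57 CPM in the control males and 141.75, 196.73, 200.22, 260.18 and 339.16 CPM in the males at 5 mg/kg. Every treated male lay far above every control. In molecules this is 694 in the 5 treated males against 12 in the 5 controls, a ratio of 33.7 after scaling to the molecules of each group (95% exact interval 19.1 to 65.5). At 0.1 mg/kg the sums ran from 5.29 to 33.84 CPM and at 0.5 mg/kg from 2.62 to 22.19 CPM, overlapping the controls at both doses. The molecule ratios to controls were 2.36 (interval 1.18 to 5.05) and 1.82 (0.907 to 3.91), on 31, 30 and 12 molecules at 0.1, 0.5 and 0 mg/kg. Mouse 205 alone held 14 of the 31 molecules at 0.1 mg/kg, a spread between mice that the interval leaves out.

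The sum of the 16 replication members was 83.26 to 116.27 CPM in control males (median 95.03) and 85.23 to 160.81 CPM at 5 mg/kg (median 117.15), and the groups overlapped. The molecule ratio was 1.35 (interval 1.11 to 1.64) at 5 mg/kg, 1.01 (interval 0.806 to 1.27) at 0.1 mg/kg and 0.779 (interval 0.619 to 0.979) at 0.5 mg/kg. These intervals leave out the spread between mice, and the sums at 0.5 mg/kg (59.78 to 89.43 CPM) also overlapped those of controls. The mitosis sum was 0.04 to 0.117 of the replication sum in control males and 0.881 to 2.895 of it in males at 5 mg/kg. Among the 29 other mice this quotient was at most 0.486 except in female 452, where it was 1.271. Within the males at 5 mg/kg, mouse 401 had the lowest mitosis sum (141.75 CPM) and the highest replication sum (160.81 CPM).

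In females at 5 mg/kg the mitosis sums were 3.07, 8.61, 24.9, 49.81 and 166.98 CPM, against 6.18, 19.13, 19.19, 31.9 and 46.66 CPM in controls. Of the treated females, 1 lay below the control range and 2 within it. The highest sum, that of mouse 452, falls inside the range of males at 5 mg/kg, while mouse 455 was just above the highest control. The replication sums were 100.35 to 134.97 CPM at 5 mg/kg and 72.68 to 129.33 CPM in controls.

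**Figure D3:**
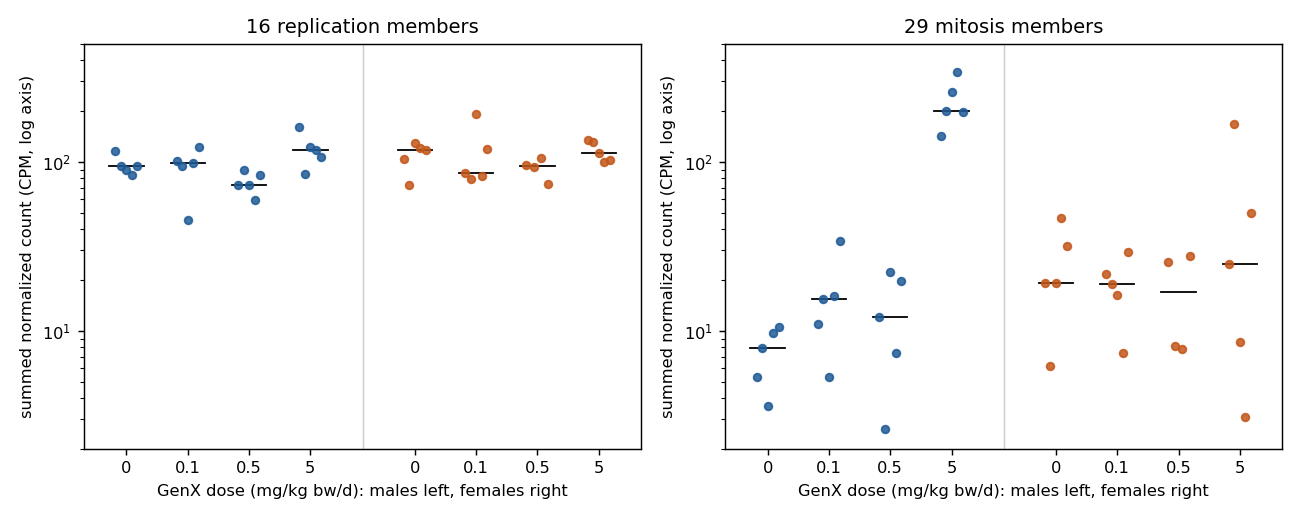
Each point is 1 mouse and each line a group median; the y axis (log scale) is the summed CPM of the 16 replication members (left) or the 29 mitosis members (right), by sex and dose in mg/kg bw/d. Mitosis sums of males at 5 mg/kg run from 141.75 to 339.16 CPM with every other male at or below 33.84 CPM, while the replication sums of males at 5 mg/kg (85.23 to 160.81 CPM) overlap those of control males (83.26 to 116.27 CPM).

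Tests were made with edgeR's quasi-likelihood test in a single fit of the 39 libraries, and adjusted p values are Benjamini-Hochberg values over all 17877 probes that passed the filter on low counts, with a call at an adjusted p below 10%. Of the members, 42 passed that filter. *Cdc6*, *Mcm5*, *Foxm1*, *Ndc80* and *Spc25* did not, and 7 mitosis members (*Mki67*, *Cenpf*, *Bub1b*, *Ube2c*, *Nusap1*, *Tpx2* and *Racgap1*) passed only because of their reads in males at 5 mg/kg. No count over tested members is therefore offered as support, and the counts are set beside those of all 12412 genes whose leading probe was tested. Where every control was at 0, a fitted fold change depends on an arbitrary prior count. A lower bound is printed instead, against a floor of 3 molecules over the whole control group. It takes the treated count as exact, so it is not a confidence limit and is least secure where few molecules were counted.

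In males at 5 mg/kg, 5 of the 47 members were called higher, all of them mitosis members, and 1 was called lower, the replication member *Tk1*. Among all genes, 5.59% were called higher and 3.75% lower. Without adjustment, 23 members were higher and 1 lower at p below 0.05, against 15.1% and 7.75% of all genes, and 19 of the higher were mitosis members. These 19 include the 7 mitosis members that passed the filter only through these males, so their number is a description only. Every treated male lay above every control for 17 members (13 mitosis, 3 replication and *Ccnd1*), against 5.93% of all genes, and below every control for 1, *Tk1*, against 3.38%. Among the 13, *Mki67* and *Cenpf* passed the filter only through these males. The mean was higher at 5 mg/kg for 28 of the 29 mitosis members, with *Spc25* at 0 in both, and for 12 of the 16 replication members.

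The median fitted log2 fold change, in a fit without the filter, was 7.62 over the 28 mitosis members with reads, 0.75 over the replication members and 0 over all 16275 genes. With genes absent from all controls set at their lower bound, the mitosis and replication medians were 1.34 and 0.09. Genes absent from controls with at most 3 molecules in the treated males have no bound and were ranked lowest. All 3 replication members absent from controls (*Mcm4*, *Mcm5* and *Cdc6*) were ranked so although their treated means were higher, which pulls the 0.09 down. Over the tested replication members alone the median was 0.37, and it was -0.43 in counts of molecules. The median over all tested genes was 0.11.

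*Kif20a*, a kinesin of the central spindle that is needed for cytokinesis, had the most reads of the mitosis members. It was at 0 in all 5 control males and at 26.22, 29.04, 55.91, 59.19 and 75.26 CPM at 5 mg/kg. All treated males stood apart, with 150 molecules against 0, which is at least 29.1-fold higher (adjusted p = 5.5e-06). Its second probe averaged 0.55 ± 1.22 CPM (SD, n = 5) in controls but 22.14 ± 11.86 CPM (SD, n = 5) in the treated males, without overlap, but was not called (adjusted p = 0.155).

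Of all genes, edgeR called 0.0403% (0.1 mg/kg) and 1.88% (0.5 mg/kg) higher in males at the lower doses, and 0% and 0.733% lower. *Kif20a* was also the 1 member that edgeR called there. At 0.1 mg/kg the males had 0, 1.93, 4.41, 5.81 and 6.45 CPM (adjusted p = 0.0801), and at 0.5 mg/kg 0, 2.62, 3.18, 3.57 and 7.26 CPM (adjusted p = 0.00432). At each of these doses 4 of 5 males were above all controls and 1 was at 0 like them. The 8 molecules in each group are few, and both calls were lost in counts of molecules, with probes summed by gene and in a fit of only the groups compared. The call at 0.1 mg/kg was also lost with all 40 libraries and when any single control, male 201 or male 204 was left out. DESeq2 called 8 members at 0.1 mg/kg (6 higher, 2 lower) and 6 at 0.5 mg/kg (4 higher, 2 lower), *Kif20a* among them. Its share over all genes was not computed.

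*Cenpe*, the kinesin that moves chromosomes to the metaphase plate, was at 0 in all control males and at 9.73, 13.07, 18.31, 20.49 and 26.48 CPM at 5 mg/kg. This was at least 10.5-fold higher in molecules (adjusted p = 0.0155). *Top2a* (11: 98992943 to 99024189, GRCm38), the topoisomerase that untangles sister DNA, was at 0 in all controls and at 5.95, 8.03, 13.42, 19.74 and 19.83 CPM at 5 mg/kg. It was at least 7.57-fold higher (adjusted p = 0.0148), and it had reads in 3 males at each of the lower doses, up to 5.71 CPM. *Plk1* (7: 122159439 to 122169873), the kinase that matures the spindle poles, was at 0 in controls and at 4.37, 9.86, 10.61, 20.23 and 21.66 CPM at 5 mg/kg. It was at least 7.76-fold higher (adjusted p = 0.0418), and 1 of its other probes was called too (9.57 ± 6.24 CPM, SD, n = 5, against 0, adjusted p = 0.061). *Prc1* (7: 80294450 to 80316259), which bundles the midzone microtubules, was at 0 in the controls and in all males at 0.1 and 0.5 mg/kg. At 5 mg/kg it had 6.06, 7.7, 7.84, 8.02 and 9.16 CPM, at least 4.46-fold higher (adjusted p = 0.0649). Treated and control males did not overlap for any of these genes. In counts of molecules none of these 4 was called, and the call of *Prc1* was also lost by DESeq2, with all 40 libraries, with probes summed by gene and when any single control male was left out.

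At the lower doses no member had all treated males above or all below the controls. Of all genes, 0.346% were above and 0.25% below at 0.1 mg/kg, and the 0.5 mg/kg shares were 2.34% and 1.27%. Without adjustment, 10 members were higher and 7 lower at 0.1 mg/kg (7.37% and 5.5% of all genes), and 7 higher and 4 lower at 0.5 mg/kg (10.8% and 7.22%).

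*Mki67* (7: 135689784 to 135716361), the gene of the Ki-67 proliferation marker, was scarce. It was at 0 in all control males and at 0.12, 1.83, 2.46, 3.31 and 4.33 CPM at 5 mg/kg, on 8 molecules in all, the lowest value being under 1 molecule. Against the floor it was 1.55-fold higher, with the 8 treated molecules taken as exact, and it was not called (adjusted p = 0.146).

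Other mitosis members that were higher in every male at 5 mg/kg did not pass the threshold. *Ccnb1*, the cyclin of mitotic entry, had 13.92, 17.7, 27.15, 29.57 and 38.12 CPM against a single control with 1.79 CPM (77 molecules against 1, ratio 44.8, interval 7.81 to 1790.0, adjusted p = 0.121). *Ccna2*, the cyclin of S and G2 phase, had 13.58 to 21.69 CPM against 0 to 4.05 CPM in controls (56 against 2 molecules, ratio 16.3, interval 4.31 to 138.0, adjusted p = 0.363). *Aurkb*, the kinase of the chromosomal passenger complex, and *Nuf2*, of the kinetochore, were likewise separate from controls, with adjusted p values of 0.633 and 0.621. *Cdc20*, which activates the anaphase-promoting complex, was above all controls in 4 of 5 males (2.9 to 28.04 CPM against 0 to 4.43 CPM, adjusted p = 0.294), and its second probe was called (5.81 ± 3.27 CPM, SD, n = 5, against 0, adjusted p = 0.0962). The remaining separate members were *Bub1*, *Cenpf* and *Ect2*, all at 0 in every control, with adjusted p values of 0.113 to 0.151. The wide intervals reflect controls with 1 to 3 molecules.

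Second and further probes were examined in the same males. The mitosis members have 31 of them, 24 with reads in males at 0 or 5 mg/kg, and the mean was higher at 5 mg/kg for 22 of them and lower for 2. The replication members have 18, of which 9 were higher, 6 lower and 3 at 0 in both groups. *Kif20a* made up 21.6% of the mitosis reads in males at 5 mg/kg, and *Kif20a*, *Ccnb1*, *Ccna2*, *Cenpe* and *Cdc20* together 56.0%. These shares belong to the counts, since probes differ in efficiency.

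**Figure D4:**
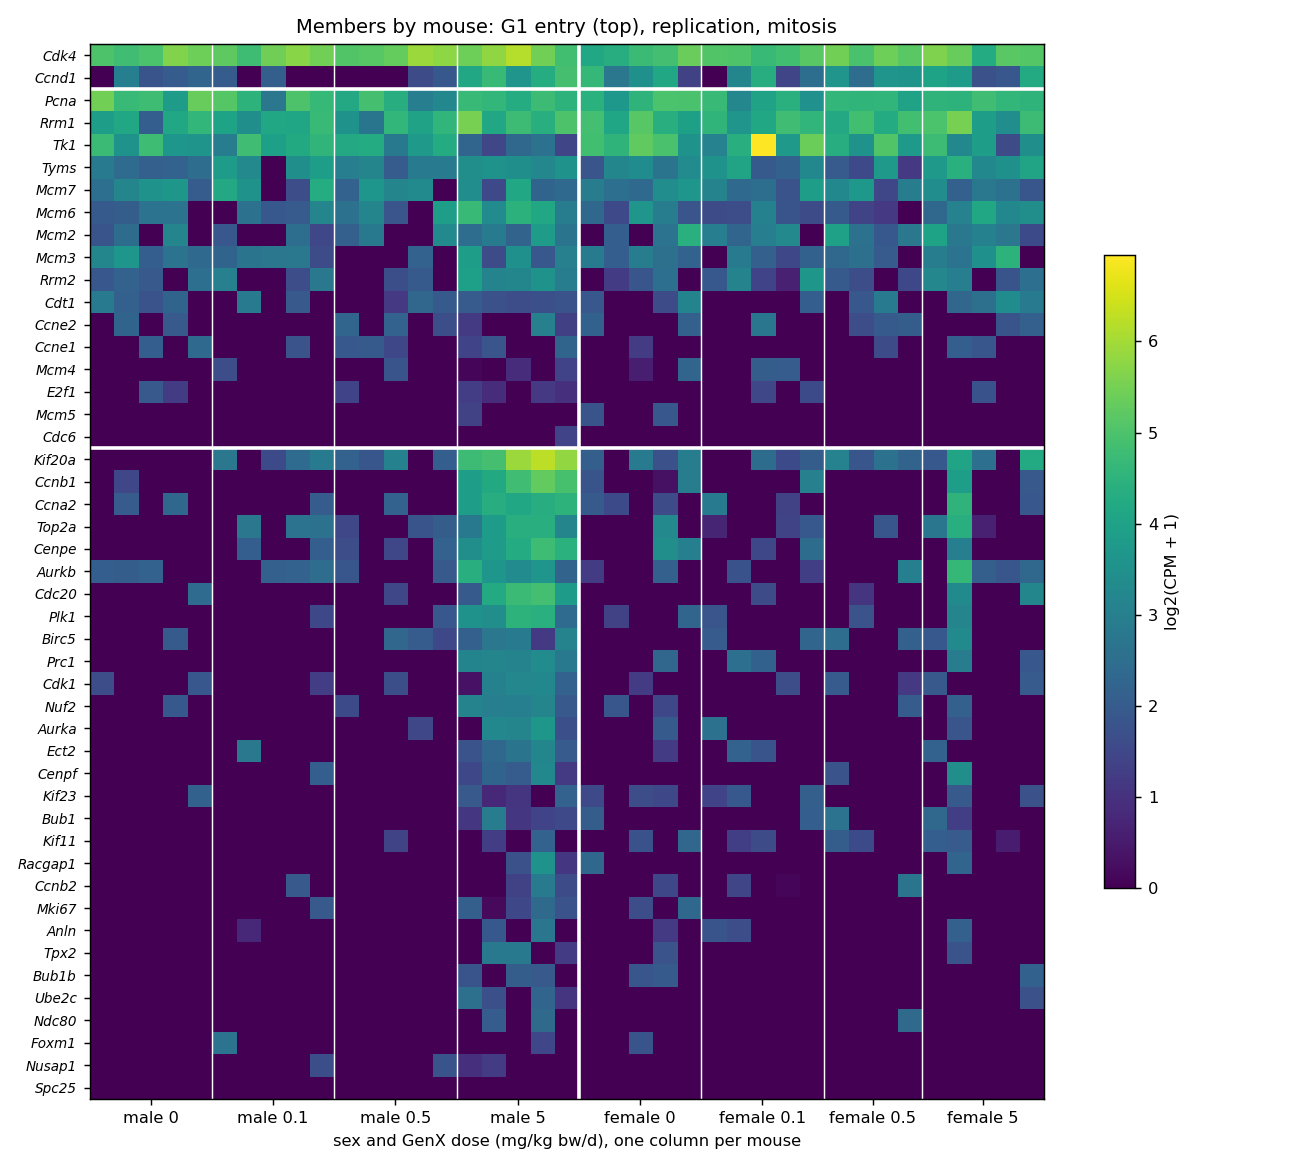
Color gives log2(CPM + 1) of each of the 47 members (rows: G1 entry at the top, replication in the middle, mitosis at the bottom, each ordered by mean) in each of 39 mice (columns, by sex and dose in mg/kg bw/d). The mitosis rows are dark in control males, where 21 of 29 have no read, and lit in males at 5 mg/kg, while replication rows such as *Pcna* and *Rrm1* are lit in every mouse.

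Among the replication members the only call at 5 mg/kg in males was a decrease, although *Rrm1* was called higher with probes summed by gene. *Tk1* (11: 117815526 to 117826092), the salvage enzyme that makes thymidine monophosphate, had 10.99, 11.11, 11.51, 25.82 and 26.61 CPM in control males and 1.76, 1.78, 3.85, 4.12 and 5.11 CPM at 5 mg/kg. All treated males lay below all controls. Expression fell by 2.37 on the log2 scale (SE 0.57, adjusted p = 0.0036), with 9 molecules against 27. The call held in all 7 alternative analyses and with each of the 10 mice left out in turn. At 0.1 and 0.5 mg/kg the means were 17.66 ± 7.97 and 14.54 ± 5.38 CPM (SD, n = 5), close to the 17.21 ± 8.23 CPM (SD, n = 5) of controls. Control females averaged 25.55 ± 9.8 CPM (SD, n = 5), whereas the females given 5 mg/kg averaged 11.98 ± 8.87 CPM (SD, n = 5), with overlap (log2 fold change -1.09, SE 0.54, adjusted p = 0.278). In females at 0.1 mg/kg 1 mouse reached 122.67 CPM, the highest *Tk1* value of all, and the other 4 had 7.42 to 40.96 CPM. The second *Tk1* probe was near 0 in males (controls 1.36 ± 1.87 CPM, 5 mg/kg 0.5 ± 0.71 CPM, SD, n = 5) and cannot resolve the change.

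*Pcna* (2: 132249162 to 132253314), the sliding clamp of DNA polymerase and a common proliferation marker, was not called. It had 13.18, 25.3, 26.53, 39.66 and 43.4 CPM in control males and 18.76, 21.4, 23.16, 25.2 and 26.27 CPM at 5 mg/kg, all within the control range (log2 fold change -0.37, SE 0.38, adjusted p = 0.819). At 0.5 mg/kg the males had 6.91 to 29.09 CPM (log2 fold change -0.87, SE 0.38, adjusted p = 0.259), and *Pcna* was called lower there in counts of molecules. Females averaged 22.95 ± 7.57 CPM (SD, n = 5) without GenX and 23.08 ± 2.34 CPM (SD, n = 5) with 5 mg/kg.

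In contrast, 3 replication members had all treated males above all controls without a call. *Mcm6*, of the replicative helicase, had 6.55 to 25.4 CPM against 0 to 5.32 CPM (adjusted p = 0.21). *Rrm2*, the regulated subunit of ribonucleotide reductase, had 6.55 to 14.05 CPM against 0 to 4.79 CPM (adjusted p = 0.739), and *Tyms*, which makes thymidylate de novo, had 8.24 to 10.77 CPM against 3.36 to 6.08 CPM (adjusted p = 0.42). *Rrm1*, the large subunit of the reductase, overlapped the controls (16.93 to 45.47 against 3.2 to 23.49 CPM, adjusted p = 0.192). *Mcm2*, *Mcm3*, *Mcm7*, *Cdt1*, *E2f1*, *Ccne1* and *Ccne2* had log2 fold changes smaller in size than their SE. *Mcm4*, *Mcm5* and *Cdc6* had 1 molecule each over the 5 males. At 0.5 mg/kg *Mcm3* was at 0 in 4 of 5 males and at 3.56 CPM in the other, against 3.2 to 11.5 CPM in controls (adjusted p = 0.259). It was called lower at that dose by DESeq2 and with male 304 left out. Of the helicase subunits, *Mcm6* had a ratio of 4.27 in molecules (interval 1.81 to 12.3) and *Mcm7* 0.97 (interval 0.452 to 2.18), and the difference between them was not tested.

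Of the G1 members, *Ccnd1* (7: 144929931 to 144939925), cyclin D1, the growth signal sensor of G1, had 0, 2.5, 3.1, 3.79 and 7.07 CPM in control males. At 5 mg/kg it had 11.36, 17.09, 18.74, 24.77 and 28.66 CPM. The groups did not overlap, yet the change was not called (log2 fold change 2.61, SE 1.22, adjusted p = 0.202). It was called higher in a fit of only the groups compared and with probes summed by gene. At 0.1 and 0.5 mg/kg the males had 0 to 3.27 CPM, and 3 of 5 in each group were at 0. Control females ranged from 1.53 to 23.55 CPM and females at 5 mg/kg from 2.31 to 17.92 CPM (log2 fold change -0.17, SE 1.15, adjusted p = 1). The order of means among males was thus 0.96 (0.5 mg/kg), 1.28 (0.1 mg/kg), 3.29 (control) and 20.13 CPM (5 mg/kg), and the means at 0.5, 0.1 and 0 mg/kg do not differ beyond their spread. *Cdk4* (10: 127063534 to 127067920), the kinase partner of cyclin D1, was read in every mouse, with means of 36 ± 9.13 CPM (SD, n = 5) for control males and 47.96 ± 16.47 CPM (SD, n = 5) for the high dose (log2 fold change 0.41, SE 0.27, adjusted p = 0.43). Of its other probes 1 was called (5.27 ± 3.32 CPM, SD, n = 5, against 0 in control males, adjusted p = 0.0372), and *Cdk4* was called higher with probes summed by gene. The corresponding female means were 26.01 ± 9.35 and 34.75 ± 10.62 CPM (SD, n = 5) (log2 fold change 0.42, SE 0.27, adjusted p = 0.534).

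**Figure D5:**
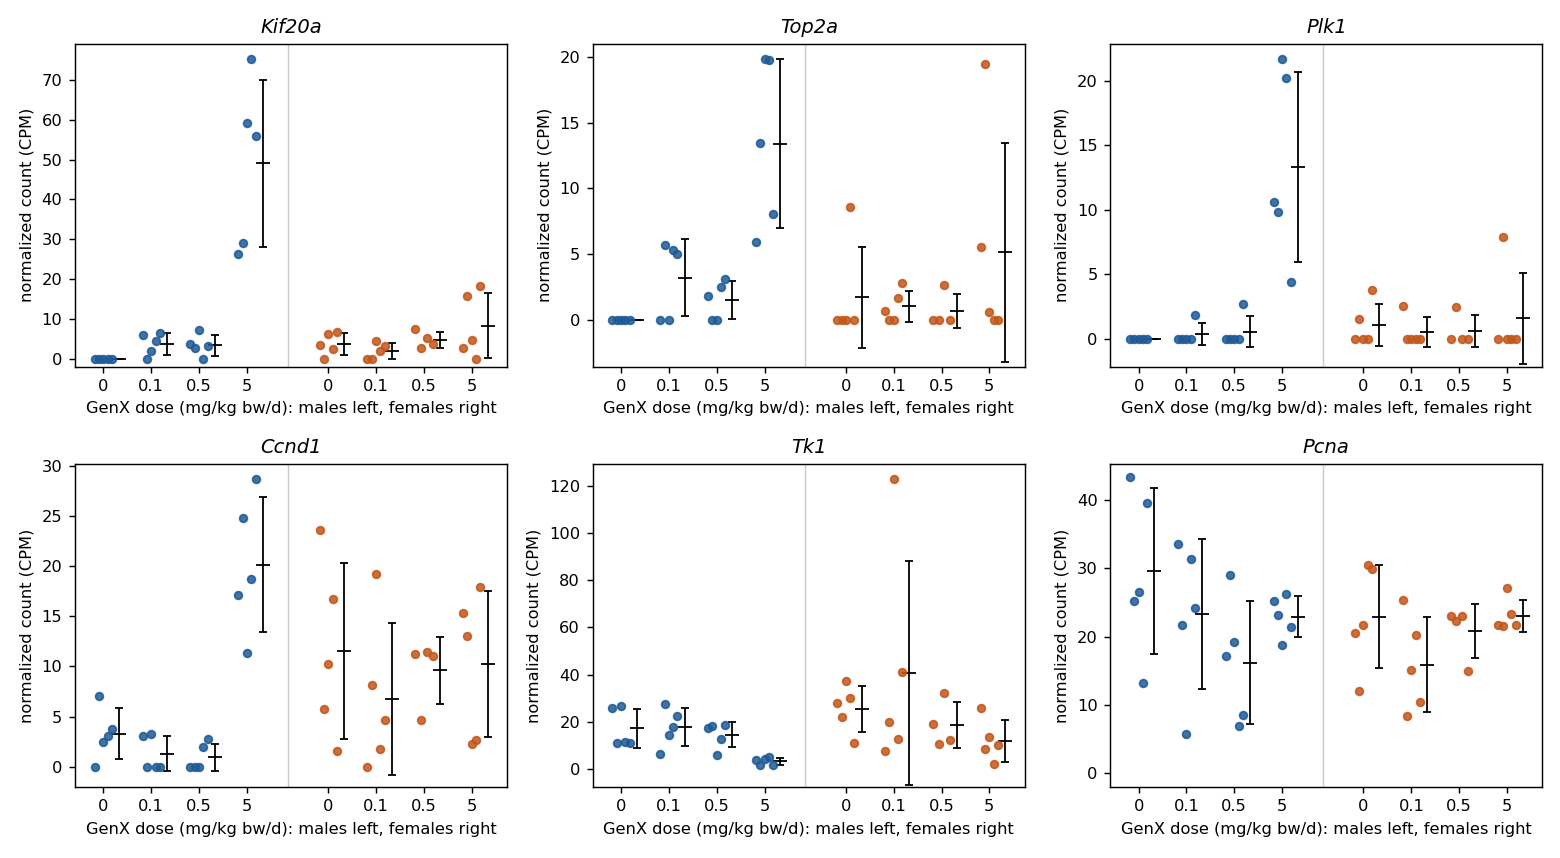
Each point is 1 mouse and the black bars are mean ± SD; the y axis is CPM of *Kif20a*, *Top2a*, *Plk1*, *Ccnd1*, *Tk1* and *Pcna*, by sex (males left, blue; females right, orange) and dose in mg/kg bw/d. In males at 5 mg/kg *Kif20a* reaches 26.22 to 75.26 CPM, *Tk1* drops to 1.76 to 5.11 CPM and *Pcna* stays within its control range, and lower arms of bars under 0 only reflect the SD.

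No member was called in females by edgeR at any dose, where, from the lowest dose up, 0%, 0.201% and 4.09% of all genes were called in either direction (higher 0%, 0.177% and 2.09%; lower 0%, 0.0242% and 2%). Without adjustment, 8, 11 and 8 members had a p below 0.05, 3, 3 and 5 of them higher, against 9.6%, 9.83% and 18% of all genes. DESeq2's Wald test called 0, 5 and 1 members, with no share over all genes computed for it. No member separated all treated from all control females at any dose, against 0.322%, 0.991% and 2.13% of all genes above and 0.266%, 0.83% and 1.58% below. *Kif20a* had 0, 2.78, 4.78, 15.76 and 18.19 CPM in females at 5 mg/kg and 0, 2.31, 3.32, 6.1 and 6.58 CPM in controls (log2 fold change 1.18, SE 1.07, adjusted p = 0.88). Mice 452 and 455 lay above all controls and the other 3 within their range or at 0. *Mki67* was at 0 in all females at 0.1, 0.5 and 5 mg/kg, and 2 control females had 2.14 and 3.99 CPM.

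The sexes were compared by an interaction term, which asks whether the change against controls differs between females and males. At 5 mg/kg it was called for *Kif20a* only (adjusted p = 0.00315), against 1.19% of all genes (0.483% with a change more positive in females, 0.709% more negative), and 14 members had an unadjusted p below 0.05 (12.6% of all genes). At 0.1 and 0.5 mg/kg edgeR called no interaction, against 0% and 0.322% of all genes (at 0.5 mg/kg 0.0886% more positive and 0.234% more negative in females). At an unadjusted p below 0.05 there were 10 and 7 members (7.98% and 10.7% of all genes). DESeq2 called 7 and 6 members, but its share over all genes was not computed, so these counts have nothing to be set against. Among controls, *Kif20a* (adjusted p = 0.00228) and *Cenpe* (adjusted p = 0.0985) were higher in females, where 2.37% of all genes were higher, 1.52% lower and 3.89% called in all. *Cenpe* was at 0 in all male controls and in 3 of 5 female controls, with 6.98 and 9.86 CPM in the others. With few molecules in controls, these calls rest on the absence of reads in control males, and neither held in counts of molecules. The *Cenpe* call was also lost without any single control male or without female 154 or 155.

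Markers of liver cell types were summed in the same males. Hepatocyte markers summed to 17523.51 to 24442.27 CPM at 5 mg/kg, below every control, and 3 of 6 were called lower (*Apoa1*, *Cps1* and *Serpina1a*), against 3.75% of all genes. Most of this sum is *Apoa1* alone, at 26559.48 ± 2729.13 CPM in controls and 14393.43 ± 2330.53 CPM at 5 mg/kg (SD, n = 5). Whether hepatocytes were fewer was not tested. The same 3 markers were called lower in females at 5 mg/kg, against 2% of all genes. The hepatocyte sum there was 14870.44 to 24143.55 CPM against 22729.69 to 39222.97 CPM, and no mitosis member was called. Stellate cell and fibroblast markers summed to 156.75 to 193.75 CPM in males at 5 mg/kg, against 63.66 to 128.9 CPM in controls. Of these, 2 of 6 were called higher (*Col1a1* and *Col3a1*), against 5.59% of all genes, while at 0.1 and 0.5 mg/kg their sums overlapped the controls with no call. Kupffer cell markers (8 genes, 46.6 to 68.17 against 48.96 to 108.62 CPM, *Marco* and *Timd4* at 0), lymphocyte markers (12 genes, 10.91 to 22.08 against 6.5 to 21.59 CPM, *Cd3e* and *Ms4a1* at 0), neutrophil markers (6 genes, 3.04 to 9.08 against 0 to 14.82 CPM, *Elane*, *S100a8*, *S100a9* and *Ngp* at 0) and bile duct markers (5 genes, 40.04 to 95.15 against 31.91 to 60.72 CPM, *Epcam* and *Sox9* at 0) overlapped the controls. Of the 6 endothelial markers, with *Lyve1* at 0, *Clec4g* was called lower, against 3.75% of all genes. The part of these cells in the mitosis counts was not tested.

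Genes of the same processes outside the 47 were described from lists drawn up by function. Among all genes in males at 5 mg/kg, 5.59% were called higher and 3.75% lower, and 15.1% and 7.75% were so without adjustment. Every treated male lay above every control for 5.93%. Of 37 other mitosis genes found in the counts, 25 were tested and 3 called higher in males at 5 mg/kg, the kinesin *Kif2c* (9.62 ± 4.92 CPM), the spindle protein *Hmmr* (9.54 ± 3.41 CPM) and the mitotic kinase *Pbk* (5.66 ± 3.35 CPM; SD, n = 5 each), all at 0 in every control male, with adjusted p values of 0.0524, 0.0543 and 0.0955. Every treated male was above every control for 8 of the 37, and the list's sum was 92.43 to 193.82 CPM against 8.94 to 35.08 CPM. Of 28 other replication genes, 25 were tested and edgeR called none (3 higher and 1 lower at an unadjusted p below 0.05, 1 lower by DESeq2), although the sum of 121.59 to 141.96 CPM lay above the 74.43 to 110.15 CPM of controls. In females at 5 mg/kg edgeR called 0 of the 25 other mitosis genes, against 2.09% of all genes higher and 2% lower. Without adjustment 2 were higher and 4 lower (8.38% and 9.65% of all genes), and DESeq2 called 0.

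Of 18 cell cycle inhibitors and checkpoint genes, 2 of 15 tested were called higher in males at 5 mg/kg, against 5.59% of all genes. So few calls say little about the list as a whole. Its sum of 155.26 to 208.64 CPM lay above the 95.5 to 148.74 CPM of controls. Without adjustment 5 were higher and 1 lower, against 15.1% and 7.75% of all genes. *Ccng1*, cyclin G1, a p53 target, was 57.99 ± 12.55 CPM against 18.37 ± 5.33 CPM (SD, n = 5; log2 fold change 1.66, SE 0.3, adjusted p = 6.4e-05), and *Gadd45a*, a growth arrest gene, was 25.92 ± 14.37 CPM against 8.4 ± 4.24 CPM (SD, n = 5; log2 fold change 1.62, SE 0.54, adjusted p = 0.0578). Of 14 further cell cycle regulators, 13 were tested and edgeR called none in males at 5 mg/kg (5 higher without adjustment, against 15.1% of all genes, 0 by DESeq2). The sum of these regulators, 95.68 to 146.18 CPM, nevertheless lay above the 37.32 to 86.09 CPM of controls.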

How the data were processed

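Liver RNA of 40 mice was measured by TempO-Seq. The authors deposited raw counts of reads on each of 30146 probes, not normalized, and their processing notes name bcl2fastq 2.17.1.14, Bowtie and the build mm10. Counts were checked to be whole numbers. The library of mouse 355 was left out, as in the study, for lying more than 2 SD below the mean total. Counts were scaled by TMM and tested in R 4.3.3 with edgeR 4.0.16 (quasi-likelihood test, default low-count filter, all 8 groups in 1 fit, with no covariate). Every dose was set against same-sex controls, sexes were compared by an interaction, and p values are two-sided and Benjamini-Hochberg adjusted over 17877 probes. DESeq2 1.42.0, the tool of the study, was an alternative. Shares over all genes were computed with edgeR only, so the DESeq2 counts stand without one. Molecules are reads divided by the first peak of each library's counts. Ratios of molecules, pooled over the mice of a group, carry exact conditional binomial 95% intervals. The tests and the peak finder were tested on simulated data.

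Any member could be named with counts. Given in full were members called in any comparison of dose, the G1 members, and *Mki67*, *Top2a* and *Pcna*, and genes of other lists were named only if called. Other members singled out, and the printed promoter windows, were chosen after their values were seen. The members and lists were chosen with earlier results of these data known. Mice were separate animals, 5 sequenced per group. Depth ranged from 287244 to 656743 molecules per library, so 1 molecule stands for about 20.8 to 49.8 reads. Gene positions are those of GENCODE for GRCm38. The result of 1 further marker list is not reported here.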

Additional observations from a re-analysis of the deposited data

Results flagged for a closer look

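In 63 groups of values with reads in at least 3 mice, 4 had a sample far from the others by Dixon's criterion, and chance alone marks about 1 in 20 groups. In females at 5 mg/kg, mouse 452 had a summed mitosis count of 166.98 CPM, and the other 4 mice had 3.07 to 49.81 CPM. The same mouse had 19.47 CPM of *Top2a*, against 0 to 5.57 CPM. In its liver 19 of the 29 mitosis members were read, led by *Aurkb* (23.61 CPM), *Ccna2* (22.04 CPM) and *Top2a*, whereas *Kif20a* (15.76 CPM) was below each male at 5 mg/kg. In females at 0.5 mg/kg, mouse 352 had 4.64 CPM of *Ccnd1* (others 11.07 to 11.44 CPM) and mouse 354 had 14.96 CPM of *Pcna* (others 22.3 to 23.06 CPM).

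The change of *Kif20a* at 5 mg/kg differed between the sexes (interaction adjusted p = 0.00315, edgeR's quasi-likelihood test), being larger in males, where 5 of 5 treated mice were above all controls, than in females, where 2 of 5 were.

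Mouse 355, left out of the comparisons for its depth, had a summed mitosis count of 146.88 CPM with 12 of 29 members read, above the highest control female (46.66 CPM). Its replication sum was 102.17 CPM, within the control range.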

How the results depend on the processing

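Depth limits these results, since the 29 mitosis members had 12 molecules in all in the control males. The cause of the changes below was not tested. In males at 5 mg/kg the 6 calls became 13 in a fit of only the groups compared, 12 with probes summed by gene and 2 (*Kif20a* and *Tk1*) in counts of molecules, and stayed at 5 to 8 in the other alternatives and at 5 to 6 with a mouse left out. At 0.1 mg/kg in males the 1 call became 8 by DESeq2 and 0 with all 40 libraries, with only the groups compared, with probes summed and in molecules (0 to 1 with a mouse left out). At 0.5 mg/kg it became 6 by DESeq2, 3 without the filter, and 0 with only the groups compared or with probes summed, and without male 304 it became 2 (range 1 to 2), while in molecules the 1 call was a decrease of *Pcna* in place of *Kif20a*. In females the count of 0 became 5 by DESeq2 at 0.5 mg/kg, and 1 at 5 mg/kg by DESeq2, without the filter, and without female 154 or 453 (0 to 1 with a mouse left out). Interactions at 0.1 mg/kg became 7 by DESeq2 and 2 without the filter, those at 0.5 mg/kg 6 by DESeq2, 2 without the filter and 1 with probes summed (0 to 3 with a mouse left out, the changes coming without females 151 and 152 and males 302 and 304), and the 1 at 5 mg/kg 6 by DESeq2, 2 with DESeq2's size factors, and 3 without the filter, with only the groups compared or with probes summed (1 to 3 with a mouse left out, 3 without female 452 and 2 without females 151 or 152). The 2 calls between control sexes became 6 by DESeq2, 4 without the filter, 1 with size factors, all 40 libraries or probes summed, and 0 with only the groups compared or in molecules (1 to 2 with a mouse left out). Directions reversed for *Ccnd1* in females at 5 mg/kg (0.03 with probes summed, -0.47 to 0.26 with a mouse left out), *Pcna* in females at 5 mg/kg (-0.01 without the filter and in molecules, -0.15 to 0.13 with a mouse left out), the median of replication members in counts of molecules (-0.43 for males, -0.01 for females, at 5 mg/kg), and the median of mitosis members in females at 5 mg/kg without female 452 (-0.41, range -0.41 to 1.42). No paired analysis was possible because animal numbers are not shared between groups.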
